A study of Mus musculus with 6 samples.

Results

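The interleukin-1 family and inflammasome genes examined here were 10 genes: the ligand genes Il1a, Il1b, Il1rn and Il18, the receptor genes Il1r2 and Il1rap, and the inflammasome genes Nlrp3, Pycard, Casp1 and Gsdmd. They were chosen by gene symbol from the 24956 gene rows of a read count table, and all 10 were among the 14520 genes that passed the filter on low counts. RNA was sequenced in bulk from flow-sorted microglia (the macrophages that reside in brain tissue) of 3XTg-AD mice aged 7 months. This strain carries human APP and MAPT transgenes under the Thy1 promoter, which is active in neurons, and serves as a model of Alzheimer's disease. All libraries of both groups came from it. The isotype group (3 libraries) received an isotype control antibody and the anti-NK1.1 group (3 libraries) one that binds NK1.1, which marks natural killer (NK) cells in several mouse strains, at 25 µg every 4 days for 4 weeks. The labels give neither the sex of the mice nor whether a library held 1 animal or a pool, so the p-values measure the spread between these libraries. The comparison asks how these microglia differ in interleukin-1 and inflammasome transcripts after the antibody against NK1.1 in place of the isotype control.

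Interleukin-1 alpha and interleukin-1 beta bind the same receptor and start an inflammatory response through the adaptor MyD88 and NF-κB. The receptor antagonist encoded by Il1rn occupies that receptor without signalling, and the decoy receptor encoded by Il1r2 binds the ligands and does not transmit the signal. Interleukin-1 beta and interleukin-18 are made as inactive precursors, and in an inflammasome the sensor NLRP3 and the adaptor ASC (encoded by Pycard) activate caspase-1, which cuts both precursors and opens the pore protein gasdermin D. RNA levels therefore describe the supply of precursors and parts, and carry no reading of caspase cleavage or release. In the brain, microglia are a main source of interleukin-1 during inflammation, and Il1b and Il1r2 are also transcribed by neutrophils.

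Il1a and Il1b lie on the same strand of chromosome 2, 54.6 kb apart. Il1a had the smallest p of the 10 genes and Il1b the highest level per length, so the windows around their start sites are shown. Each runs 5′ to 3′ on the gene's strand from 250 bases before to 50 bases after the RefSeq start (GRCm38.p6, minus strand), at chr2:129309923-129310222 for Il1a and chr2:129371090-129371389 for Il1b. Capitals mark matches, on either strand, to the TATA box TATAAA, the AP-1 motif TGANTCA, the PU.1 core GAGGAA, the C/EBP motif TTGCNNAA or the NF-κB consensus.
Il1a: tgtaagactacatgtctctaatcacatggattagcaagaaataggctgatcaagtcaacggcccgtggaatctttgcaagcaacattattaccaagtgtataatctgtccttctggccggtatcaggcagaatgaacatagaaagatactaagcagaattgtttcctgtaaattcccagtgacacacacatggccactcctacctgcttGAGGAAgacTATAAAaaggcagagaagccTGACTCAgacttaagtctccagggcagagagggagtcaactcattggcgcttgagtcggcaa
Il1b: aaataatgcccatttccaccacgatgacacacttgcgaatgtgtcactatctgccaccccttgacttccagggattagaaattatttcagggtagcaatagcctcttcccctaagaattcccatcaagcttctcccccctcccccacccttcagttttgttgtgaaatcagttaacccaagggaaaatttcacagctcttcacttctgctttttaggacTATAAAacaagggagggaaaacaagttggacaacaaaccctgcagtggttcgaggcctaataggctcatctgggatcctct
Both windows held TATAAA, beginning 32 bases before the start in Il1a and 31 in Il1b. The Il1a window also held GAGGAA, beginning 41 bases before the start, and an AP-1 match beginning 12 bases before it, neither of which was found in the Il1b window. Neither window held a match to the C/EBP motif or the NF-κB consensus as spelled out in the search. Of 32851 RefSeq windows of this length, 13.6% held TATAAA, 28.3% GAGGAA, 7.81% the AP-1 motif, 10.8% the C/EBP motif and 8.46% the NF-κB consensus. A match is a description of letters and not a measured binding site.

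Library totals over genes ranged from 26893620 to 36098252 counts. The microglial markers P2ry12 and Tmem119 were detected in every library. P2ry12 stood at 4557 to 5058 CPM (counts scaled to a library of 1000000) in isotype libraries and at 2683 to 4384 CPM after anti-NK1.1. Tmem119 stood at 1649 to 2771 CPM in isotype libraries and at 2732 to 3473 CPM after anti-NK1.1. Of the 12 microglial markers listed, 5 had estimates above 0 and 7 below (median log2 change -0.07). Without overlap between the groups, 2 were higher and 1 was lower. The summed level of the 12 was 35247 to 39474 CPM in isotype libraries and 31609 to 40699 CPM with anti-NK1.1. Klrb1c, which encodes NK1.1, stood at 1.39, 1.40 and 2.09 CPM in the isotype libraries and at 0, 0 and 0.518 CPM in the anti-NK1.1 libraries, where the counts of 0 allow up to 0.113 and 0.0876 CPM. Of 9 NK cell markers 8 were tested, with 6 estimates below 0 and 2 above (median log2 change -1.04), and 3 lay lower without overlap. The summed level of the 9 was 123, 132 and 87.3 CPM in isotype libraries and 42.6, 45.2 and 73.2 CPM with anti-NK1.1. All 14 neutrophil markers were also detected in every library. Their summed level was 75905 to 103087 CPM in isotype libraries, and with anti-NK1.1 it was 33072 and 33820 CPM in libraries 1 and 2 and 142842 CPM in library 3. By gene, all 14 had estimates below 0 (median log2 change -0.43), 4 with an unadjusted p under 0.05, and 3 lay below every isotype library in all anti-NK1.1 libraries, library 3 included. The summed level of the 8 monocyte markers was 4215 to 4789 CPM in isotype libraries and 1368, 1813 and 5542 CPM with anti-NK1.1. Of these 8, 5 had estimates below 0, 3 lay lower without overlap, and DESeq2 called 2 as lower. Border macrophage markers (8 genes, median log2 change 0.98, 3 called higher by DESeq2) had 6 estimates above 0 and 2 below. Their summed level overlapped between the groups, at 224, 192 and 355 CPM in isotype libraries and 216, 257 and 159 CPM with anti-NK1.1. All 7 neuronal markers (median 1.39, 2 called higher by DESeq2) and all 7 oligodendrocyte markers (median 0.69, 1 called higher by DESeq2) had estimates above 0, and the summed oligodendrocyte level was 299 to 407 CPM against 757 to 890 CPM. Of 7 T cell markers, 6 had estimates above 0 and 4 lay higher without overlap, at summed levels of 11.7 to 25.3 against 32.4 to 37.7 CPM. EdgeR called no marker of these lists. Over all tested genes, 7.59% lay lower and 7.73% higher without overlap. At an unadjusted edgeR p under 0.05, 3.8% of them were lower and 2.74% higher. DESeq2 called 0.38% of all genes as lower and 0.517% as higher. The part of the cells that these markers stand for in the values below was not tested. Transcript length also related differently to expression across genes in each library (Spearman rho over 14391 genes of -0.01, 0.03 and 0.33 with isotype antibody, and of -0.15, 0.26 and -0.31 with anti-NK1.1, in order of library number). Long transcripts were thus relatively low in anti-NK1.1 libraries 1 and 3.

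None of the 10 genes passed an adjusted p of 0.05 in edgeR's quasi-likelihood test over all genes, and neither did any other gene (0.0% of all genes tested). Il1a had the smallest unadjusted p among the 10 and was the only one under 0.05 before adjustment, where 3.8% of all tested genes were lower at that p, 2.74% higher and 6.54% either way. DESeq2 called 1 of the 10 as lower, again Il1a, where it called 0.38% of all genes as lower and 0.517% as higher. Limma with quantile normalization or with sample weights called none of the 10. In 3 genes, Il1a, Nlrp3 and Casp1, every anti-NK1.1 library lay below every isotype library, which held for 7.59% of all tested genes. None of the 10 lay above without overlap, which held for 7.73% of all tested genes. The estimated change was below 0 in 8 of the 10, against 49.1% of all tested genes, and above 0 in 2, against 50.9%. It was below -0.5 in 4 (23.3% of all tested genes) and above 0.5 in none (21.0%), and the median log2 change was -0.21, against 0.01 over all tested genes. Single libraries moved both values: 5 of the 10 were below 0 without anti-NK1.1 library 2 (median -0.09), 6 without anti-NK1.1 library 1, and the median was -0.02 without isotype library 3 and -0.43 without anti-NK1.1 library 3. In bulk RNA, fewer cells that make a transcript and less of it per cell cannot be told apart.

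**Figure D1:**
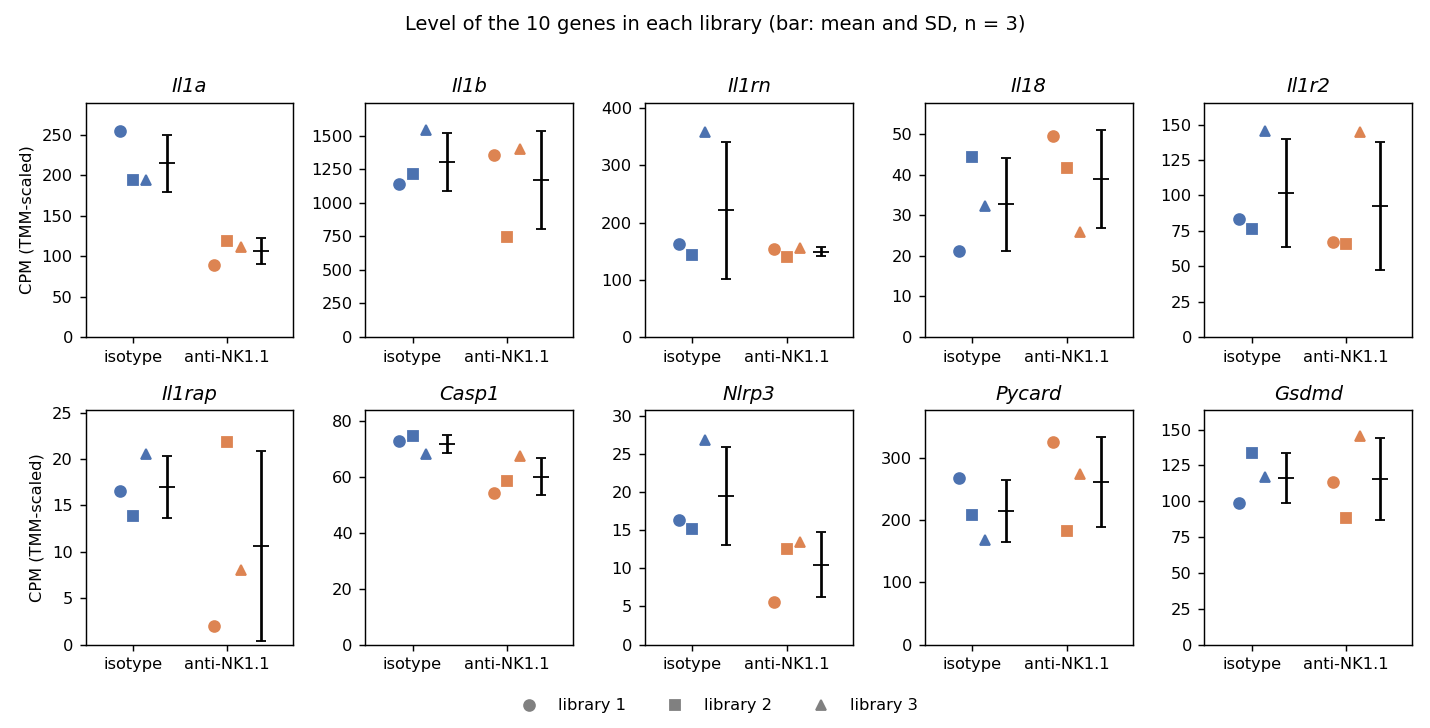
Level of each of the 10 genes in CPM (vertical axes, TMM-scaled, starting at 0) in the 3 isotype and 3 anti-NK1.1 libraries, with markers for the library number and the group mean and SD beside them. Il1a, Nlrp3 and Casp1 show no overlap between the groups, and Il1rn in isotype library 3 (359 CPM) stands far above its 5 other values.

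Among the ligands, Il1a was the gene with the clearest separation. It encodes interleukin-1 alpha, an agonist that is active as the precursor and needs no inflammasome (ENSMUSG00000027399.1, chromosome 2, 129299610 to 129309972, GRCm38). Its level was 255, 194 and 195 CPM with isotype antibody (libraries 1 to 3 in order, here and below) and 88.5, 119 and 112 CPM with anti-NK1.1. The highest anti-NK1.1 value was therefore well below the lowest isotype value, and the anti-NK1.1 level was 0.496 times the isotype level. The log2 change was -1.01 ± 0.23 (SE; 95% interval -1.53 to -0.50), with an unadjusted p of 0.00152 and an edgeR adjusted p of 0.714. It ranged from -1.10 to -0.86 when any 1 library was left out (edgeR adjusted p of 0.0786 to 0.999). After each library was corrected for its trend with transcript length and GC content it was -0.75. DESeq2 gave -0.99 ± 0.25 with an adjusted p of 0.0162. With 1 library left out, the DESeq2 adjusted p stayed under the threshold without isotype 3 (0.0416) and without anti-NK1.1 libraries 2 (0.00114) or 3 (0.0274). It rose above it without the first anti-NK1.1 library (0.183), isotype 1 (0.225) or isotype 2 (0.0599). The 3 anti-NK1.1 values were close to each other while the summed neutrophil marker level there ran from 33072 to 142842 CPM, and the part of these cells in the Il1a values was not tested.

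Gm14023, a non-coding gene on the opposite strand, shares 222 of the 1974 exon bases of Il1a. It stood at 52.5, 42.6 and 40.9 CPM with isotype antibody and 15.4, 30.1 and 24.6 CPM with anti-NK1.1. Its log2 change was -0.96 ± 0.33 (edgeR adjusted p = 0.727), close to that of Il1a. The library kits do not mark strand, so reads from the shared stretch cannot be assigned to either gene, although Il1a had the larger counts in every library.

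Il1b, the precursor that caspase-1 cuts to interleukin-1 beta (chromosome 2, 129364570 to 129371139), was the most abundant of the 10 per length. It stood at 1142, 1215 and 1545 CPM with isotype antibody and 1359, 746 and 1400 CPM with anti-NK1.1. The groups overlapped, and only anti-NK1.1 library 2 lay below the isotype range. Its log2 change was -0.16 ± 0.27 (edgeR adjusted p = 0.896), with a 95% interval of -0.76 to 0.45, so neither a moderate fall nor a smaller rise could be resolved with 3 libraries a group. It was 0.08 without anti-NK1.1 library 2, -0.01 without isotype library 3, and -0.80 with anti-NK1.1 library 2 alone in its group. Its antisense neighbour Il1bos shares 25 exon bases with it and averaged 4.41 CPM with isotype antibody and 2.26 CPM with anti-NK1.1.

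Il1rn, the receptor antagonist (chromosome 2, 24336853 to 24351494), had different group means mainly through 1 library. It stood at 162, 143 and 359 CPM with isotype antibody and 154, 139 and 155 CPM with anti-NK1.1. The 3 anti-NK1.1 values lay within the range of isotype libraries 1 and 2 or just below it, and isotype library 3 alone was high. Il1rn had a log2 change of -0.57 ± 0.34 (edgeR adjusted p = 0.745) with all libraries and -0.03 without isotype library 3. The counts sum the secreted and intracellular forms of the protein, which start at different promoters.

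Il18, a caspase-1 substrate that induces interferon gamma in NK and T cells (chromosome 9, 50554827 to 50581840), varied within both groups. It stood at 21.3, 44.4 and 32.4 CPM with isotype antibody and 49.5, 41.6 and 25.8 CPM with anti-NK1.1. The groups overlapped over most of their range, and the log2 change was 0.25 ± 0.37 (95% interval -0.58 to 1.08; edgeR adjusted p = 0.872). Without isotype library 1 or without anti-NK1.1 library 1 it was 0.04, and without isotype library 2 it was 0.54.

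The ratio of agonist to antagonist within a library does not depend on scaling between libraries. The Il1a to Il1rn ratio was 1.57, 1.36 and 0.542 with isotype antibody and 0.574, 0.855 and 0.721 with anti-NK1.1. Isotype library 3 lay below all anti-NK1.1 libraries and the other isotype libraries above them. The log2 difference was -0.57 (exact two-sided permutation test, p = 0.4, n = 3 each), and -1.05 without isotype library 3, in a design where the smallest possible p is 0.1. The Il1b to Il1rn ratio was 7.04, 8.48 and 4.30 with isotype antibody and 8.82, 5.35 and 9.05 with anti-NK1.1, a log2 difference of 0.24 (exact permutation p = 0.5) that was -0.04 without isotype library 3. The 2 agonists were compared with each other after their values had been seen. The Il1a to Il1b ratio was 0.223, 0.160 and 0.126 with isotype antibody and 0.0651, 0.160 and 0.0797 with anti-NK1.1, a log2 difference of -0.81 (exact permutation p = 0.2). Anti-NK1.1 library 2 was at the isotype level and the other 2 below it. The unequal estimates of Il1a and Il1b were thus not separated by a test of their difference.

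**Figure D2:**
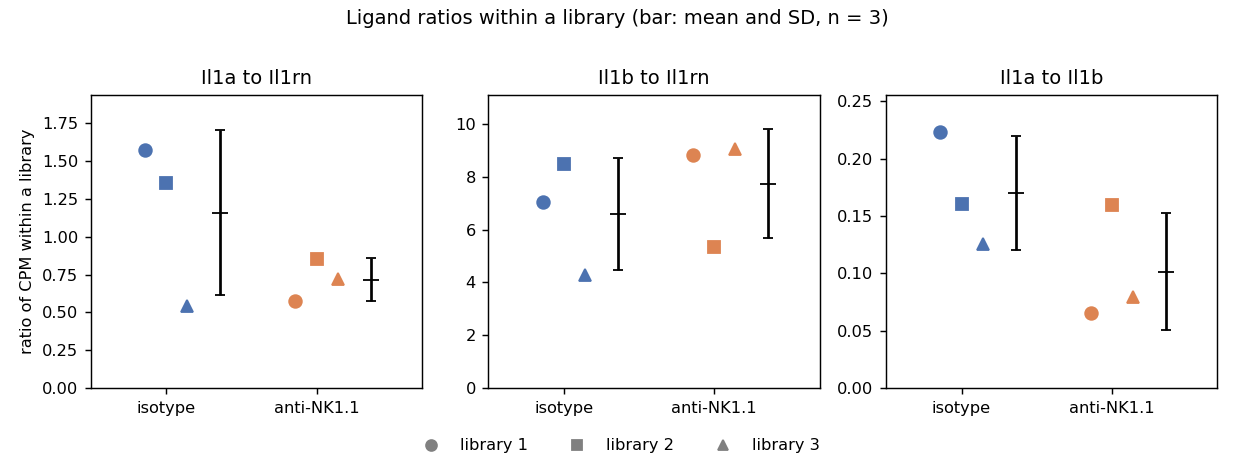
Ratio of CPM of 2 ligand genes within each library (vertical axes, starting at 0), for 3 isotype and 3 anti-NK1.1 libraries, with the group mean and SD. All 3 ratios overlap between the groups, and isotype library 3 has the lowest Il1a to Il1rn (0.542) and Il1b to Il1rn (4.30) ratios.

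Among the receptors, the decoy receptor gene Il1r2 (chromosome 1, 40074079 to 40125231) had 2 levels in each group. It stood at 83.2, 76.4 and 146 CPM with isotype antibody and 67.3, 65.9 and 145 CPM with anti-NK1.1. Library 3 of each group was high and the others were low, and the groups overlapped. Il1r2 had a log2 change of -0.13 ± 0.38 (edgeR adjusted p = 0.938), and it was 0.21 without isotype library 3 and -0.61 without anti-NK1.1 library 3. Anti-NK1.1 library 3 was also the library highest in neutrophil markers (142842 CPM), but isotype library 3 was the lowest of its group (75905 CPM). The part of these markers in the Il1r2 level was not tested.

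Il1rap encodes the accessory chain that interleukin-1 alpha and beta, interleukin-33 and interleukin-36 receptors share for signalling (chromosome 16, 26581704 to 26730117). It stood at 16.6, 13.8 and 20.5 CPM with isotype antibody and 1.96, 21.9 and 8.05 CPM with anti-NK1.1. Anti-NK1.1 library 2 had the highest value of all 6 and library 1 the lowest, so the SD in the anti-NK1.1 group (10.2 CPM) was close to its mean (10.6 CPM). For Il1rap the log2 change was -0.67 ± 0.71 (edgeR adjusted p = 0.833), -0.18 without anti-NK1.1 library 1, -1.76 without anti-NK1.1 library 2, and 0.37 with anti-NK1.1 library 2 alone in its group. Its transcript of 4520 nt is the longest of the 10 genes. Its estimate became -0.41 once length and GC content were corrected for, and the part of transcript length in the low values was not tested.

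Of the inflammasome genes, the sensor Nlrp3 (chromosome 11, 59541568 to 59566956) was lower in each anti-NK1.1 library than in any isotype library. It stood at 16.4, 15.1 and 26.8 CPM with isotype antibody and 5.53, 12.5 and 13.4 CPM with anti-NK1.1. The gap between the groups was narrow, from 13.4 to 15.1 CPM. The log2 change was -0.89 ± 0.47 (95% interval -1.95 to 0.17; edgeR adjusted p = 0.743), and it was -0.59 without isotype library 3 or without anti-NK1.1 library 1. Nlrp3 also has a long transcript (4021 nt). Its value was -0.78 after the length and GC correction and -0.64 with anti-NK1.1 library 2 alone in its group.

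Casp1, the protease that processes interleukin-1 beta and interleukin-18 (chromosome 9, 5298517 to 5307265), stood at 72.6, 74.5 and 68.2 CPM with isotype antibody and 54.1, 58.6 and 67.3 CPM with anti-NK1.1. The groups touched, with 67.3 against 68.2 CPM at the boundary, and the isotype libraries were close to each other (71.8 ± 3.23 CPM, SD, n = 3). The log2 change was -0.26 ± 0.23 (edgeR adjusted p = 0.800) and -0.08 after the length and GC correction.

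Pycard, the adaptor ASC that links sensor to caspase (chromosome 7, 127989708 to 127993867), stood at 268, 209 and 169 CPM with isotype antibody and 326, 183 and 274 CPM with anti-NK1.1. The groups overlapped, and anti-NK1.1 libraries 1 and 3 held the highest values. For Pycard the log2 change was 0.28 ± 0.28 (edgeR adjusted p = 0.820), 0.09 without anti-NK1.1 library 1, 0.13 without isotype library 3, 0.49 without isotype library 1, 0.48 without anti-NK1.1 library 2 and -0.22 with anti-NK1.1 library 2 alone in its group. The annotation holds Pycard coding transcripts from 493 to 3800 nt. The length and GC correction used the longest one and gave 0.63, so that value depends on which form these cells make.

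Gsdmd, whose product forms the membrane pore through which interleukin-1 leaves the cell (chromosome 15, 75862327 to 75867408), stood at 98.7, 134 and 117 CPM with isotype antibody and 113, 88.1 and 146 CPM with anti-NK1.1. Both groups averaged 116 CPM, and the log2 change was -0.01 ± 0.25 with a 95% interval of -0.58 to 0.56 (edgeR adjusted p = 0.995). A change of less than about that interval in either direction was not detectable with these libraries.

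**Figure D3:**
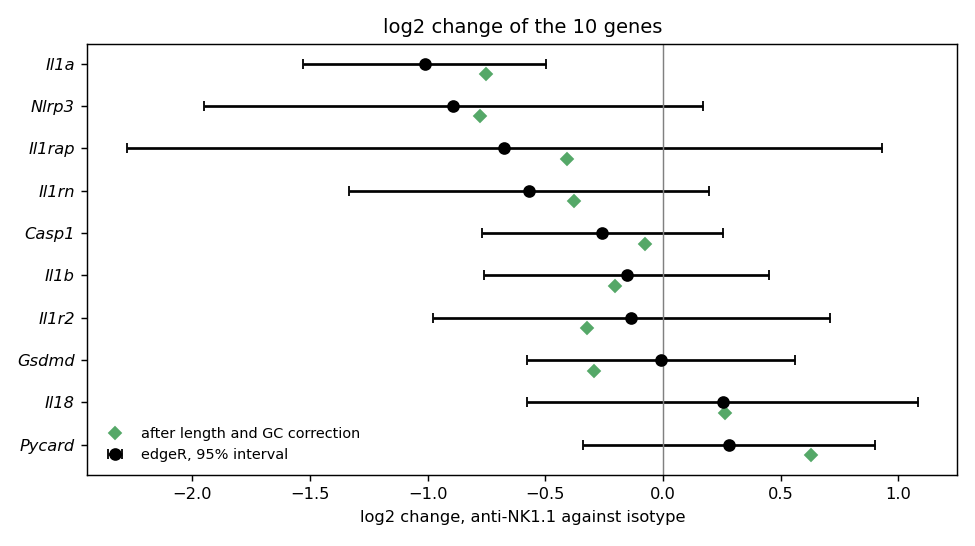
Log2 change of the 10 genes, anti-NK1.1 against isotype (horizontal axis), with 95% intervals of edgeR's quasi-likelihood fit over 3 against 3 libraries, and diamonds for the value after the length and GC correction. Only the unadjusted interval of Il1a (-1.53 to -0.50) leaves out 0, and its diamond lies at -0.75.

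The 10 genes took different places in the same library. Anti-NK1.1 library 1 was the lowest of the 6 in 4 genes, and isotype library 3 was the highest of the 6 in 4 genes. Relative to the isotype mean on the log2 scale, anti-NK1.1 library 1 was at -3.04 for Il1rap, -1.75 for Nlrp3 and -1.27 for Il1a, and at 0.63 for Pycard and 0.66 for Il18. Anti-NK1.1 library 2 was at 0.38 for Il1rap and -0.84 for Il1a. Anti-NK1.1 library 3 was at 0.57 for Il1r2, -0.93 for Il1a and -1.05 for Il1rap.

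**Figure D4:**
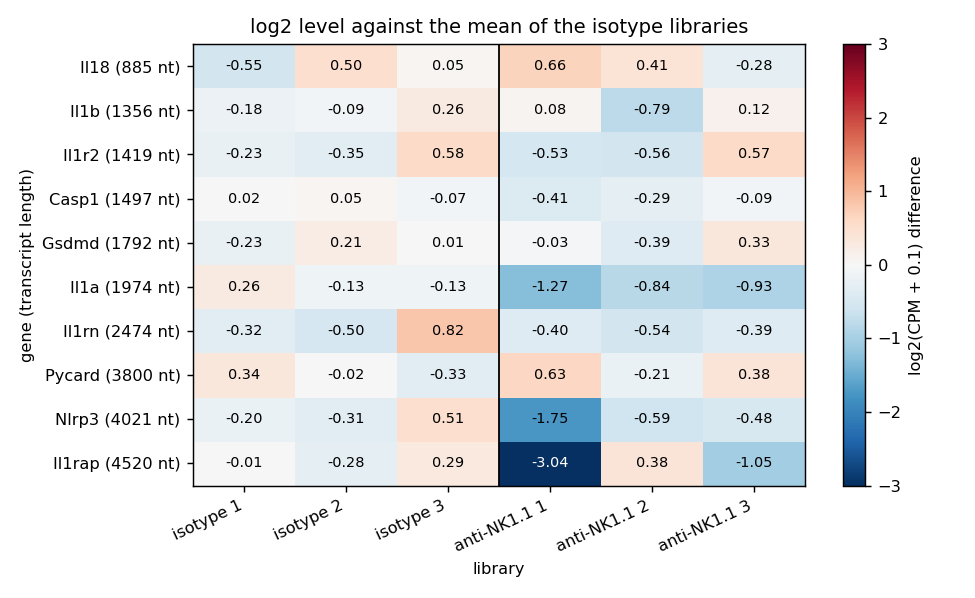
Log2 difference of each gene in each library from the mean of the isotype libraries (colour and printed value, on log2(CPM + 0.1)), with the 10 genes ordered by the length of their longest coding transcript. Il1a is negative in all 3 anti-NK1.1 libraries (-1.27, -0.84 and -0.93), while the longest transcript, Il1rap, runs from -3.04 to 0.38.

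Levels of different genes were compared per length, as CPM per kb of the longest coding transcript. Il1b stood at 959 ± 159 CPM per kb in isotype and 862 ± 270 in anti-NK1.1 libraries (SD, n = 3), above the other 9 genes in every library. In the isotype group Il1a (109 ± 17.7 CPM per kb), Il1rn (89.6 ± 48.3), Il1r2 (71.7 ± 26.9), Gsdmd (64.9 ± 9.82), Pycard (56.6 ± 13.2), Casp1 (48.0 ± 2.16) and Il18 (37.0 ± 13.05) followed. Neighbours in that order were within their spread of each other. By the longest transcript, Nlrp3 (4.84 ± 1.60 CPM per kb) and Il1rap (3.76 ± 0.743) were well below the others and within their spread of each other. In the anti-NK1.1 group Il1a stood at 53.9 ± 8.12 CPM per kb, within or near the spread of Il1rn (60.4 ± 3.50), Il1r2 (65.3 ± 31.8), Gsdmd (64.6 ± 16.1) and Pycard (68.7 ± 19.0). With the shortest coding transcript of a gene in place of the longest, the isotype value was 436 CPM per kb for Pycard and 690 for Il1rn. It was 280 for Gsdmd, 278 for Il1r2, 46.6 for Il18, 28.8 for Nlrp3 and 7.36 for Il1rap. Il1b stayed highest at 959 CPM per kb, and the places of the other genes depend on the transcript model.

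Of 10 family ligands listed, 9 were matched in the table and 6 were tested, of which 0 passed in either direction by edgeR, 1 (Il1a) passed by DESeq2, and 5 had estimates below 0 (median log2 change -0.64). Over all genes, DESeq2 called 0.38% as lower. Estimates were below 0 in 49.1% of all tested genes, and 7.59% lay lower without overlap. Il1f9, the symbol in the table for the interleukin-36 gamma gene Il36g, stood at 93.0, 79.2 and 101 CPM with isotype antibody and 34.1, 53.5 and 80.5 CPM with anti-NK1.1. Only anti-NK1.1 library 3 reached the isotype range, and the log2 change was -0.70 ± 0.32 (edgeR adjusted p = 0.743), or -1.06 without that library and -0.44 without anti-NK1.1 library 1. Il33 stood at 5.69, 0.372 and 3.71 CPM against 0.715, 4.44 and 0.598 CPM, and its log2 change of -0.76 ran from -2.31 (without anti-NK1.1 library 2) to -0.09 (without isotype library 1) when 1 library was left out. Of 11 receptor genes, all tested, none passed by edgeR or DESeq2. Estimates were below 0 in 8 (median -0.35). Of these, 2 had an unadjusted p under 0.05, where 3.8% of all tested genes were lower at that p. Il1rl2, the interleukin-36 receptor, stood at 24.3, 20.6 and 55.5 CPM with isotype antibody and 14.6, 10.8 and 15.6 CPM with anti-NK1.1, with no overlap (-1.29 ± 0.44, edgeR adjusted p = 0.727, and -0.72 without isotype library 3). Il18rap, a chain of the interleukin-18 receptor found on NK and T cells, averaged 14.9 and 4.98 CPM with overlapping groups (-1.58 ± 0.69). Il1rapl2 was under 3 CPM in every library and averaged 0.149 and 1.24 CPM, also with overlapping groups (3.01 ± 1.78). Il1r1, the receptor that transmits the interleukin-1 signal, averaged 4.32 CPM with isotype antibody and 3.92 CPM with anti-NK1.1.

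Of 17 sensors, adaptors and caspases, 14 were tested, none passed by edgeR or DESeq2, and 12 had estimates below 0 (median -0.58). Groups did not overlap for 6 of the 14, all lower, where 7.59% of all tested genes were lower without overlap. They were Nlrp3, Casp1, Nlrp1a, Naip2 and, named after their values were seen, Casp4 and Casp8. Highest anti-NK1.1 and lowest isotype values were close in Nlrp1a (4.94 and 4.96 CPM), Casp4 (17.2 and 17.4) and Casp8 (113 and 116). These values were also close in Casp1 (67.3 and 68.2 CPM), and further apart in Nlrp3 (13.4 and 15.1) and Naip2 (10.2 and 18.6). Naip2, which senses bacterial secretion system proteins, averaged 21.6 ± 2.67 CPM with isotype antibody and 6.07 ± 4.51 CPM with anti-NK1.1 (-1.83 ± 0.66, edgeR adjusted p = 0.727). Its counts and those of Nlrp1a (7.30 and 2.86 CPM) are uncertain because both belong to clusters of near-identical copies. Mefv, the sensor pyrin, stood at 5.33, 6.39 and 20.1 CPM against 6.13, 4.50 and 1.71 CPM, and its log2 change of -1.37 was -0.51 without isotype library 3. Casp4, the caspase that senses intracellular lipopolysaccharide, averaged 21.1 and 13.3 CPM, and Casp8 126 and 98.0 CPM.

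Of 10 pore and release genes 6 were tested, with 3 estimates in each direction and none past the threshold by edgeR or DESeq2. Of the 6, 1 lay higher and 1 lower without overlap, against 7.73% and 7.59% of all tested genes. P2rx4, an ATP-gated channel of microglia, was higher without overlap, at 64.6, 72.3 and 60.4 CPM against 76.6, 114 and 90.5 CPM (0.51 ± 0.24, edgeR adjusted p = 0.743). Gsdme was lower without overlap and averaged 29.6 and 19.1 CPM. Its log2 change of -0.63 was -0.31 without anti-NK1.1 library 1 and -0.19 after the length and GC correction. Ninj1, which ruptures the membrane after the pore forms, averaged 183 and 229 CPM, and its log2 change of 0.32 was 0.52 without anti-NK1.1 library 2, 0.19 without anti-NK1.1 library 3 and -0.25 after the length and GC correction.

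Of 12 regulators of NLRP3, 11 were tested, none passed by edgeR or DESeq2, and 5 had estimates above 0 (median -0.02). Of the 11, 3 lay higher and 2 lower without overlap, against 7.73% and 7.59% of all tested genes. The paired membrane proteins Tmem176a and Tmem176b, which restrain NLRP3 in dendritic cells, were both higher without overlap. Tmem176b stood at 786, 800 and 710 CPM with isotype antibody and 1388, 1002 and 1171 CPM with anti-NK1.1 (0.63 ± 0.20, edgeR adjusted p = 0.727), and 0.39 after the length and GC correction. Tmem176a averaged 360 and 584 CPM (0.70 ± 0.23). Txnip, a thioredoxin-binding protein that can engage NLRP3, stood at 1052, 1113 and 1135 CPM with isotype antibody and 698, 935 and 798 CPM with anti-NK1.1, lower without overlap (-0.44 ± 0.20, edgeR adjusted p = 0.743).

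Of 17 genes that carry the receptor signal, all tested, none passed by edgeR or DESeq2. Estimates were below 0 in 13 (median -0.32). Of these, 3 had an unadjusted p under 0.05, where 3.8% of all tested genes were lower at that p. Those were Irak3, an inhibitory kinase-like protein induced by the pathway (41.9 ± 11.7 against 24.1 ± 3.97 CPM), the ubiquitin ligase Traf6 (16.8 ± 11.4 against 4.48 ± 2.67 CPM) and the kinase Ikbkb (51.2 ± 10.6 against 25.8 ± 11.2 CPM), each lower without overlap. In this list 1 gene was higher without overlap. Over all tested genes, 7.59% were lower and 7.73% higher without overlap. Myd88, the entry point of the pathway, averaged 147 and 154 CPM. The log2 change of Traf6 was -1.90 ± 0.69, and it was -1.65 after the length and GC correction and -1.19 without isotype library 3.

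Of 13 NF-κB subunits and feedback genes, all tested, edgeR called none and DESeq2 called 1 as lower, Tnfaip3, an inhibitor of NF-κB that the pathway induces. DESeq2 called 0.38% of all genes as lower. Tnfaip3 stood at 96.0, 125 and 213 CPM with isotype antibody and 27.2, 64.9 and 50.3 CPM with anti-NK1.1 (-1.61 ± 0.39, edgeR adjusted p = 0.714, DESeq2 adjusted p = 0.0226). Nfkbiz, another inducible regulator, was lower without overlap (194 ± 34.3 against 94.1 ± 42.9 CPM, -1.05 ± 0.36). Of the 13, 2 lay lower and 0 higher without overlap, against 7.59% and 7.73% of all tested genes. Nfkbib averaged 41.5 and 62.3 CPM, a log2 change of 0.59 that was 0.38 without anti-NK1.1 library 3 and 0.13 after the length and GC correction. The list's median was -0.35, with 7 estimates below 0 and 6 above.

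Immediate-early and stress genes can be switched on while cells are dissociated and sorted. Of 18 genes, all tested, edgeR called none and DESeq2 called Egr2 as lower, with 7 estimates above 0 and 11 below (median -0.03). DESeq2 called 0.38% of all genes as lower. Of the 18, 3 were lower without overlap, where 7.59% of all tested genes were. The summed level of the 18 was 15225 to 17029 CPM in isotype libraries and 11240, 13231 and 22437 CPM in anti-NK1.1 libraries 1 to 3. Egr2 stood at 25.1, 29.4 and 23.4 CPM with isotype antibody and 4.74, 12.1 and 7.93 CPM with anti-NK1.1 (-1.65 ± 0.44, edgeR adjusted p = 0.727, DESeq2 adjusted p = 0.0263). Klf6 averaged 451 and 267 CPM, a log2 change of -0.75 that was -0.38 without anti-NK1.1 library 1 and -1.15 without anti-NK1.1 library 2. Egr1 averaged 555 and 396 CPM, a log2 change of -0.49 that was -0.15 without anti-NK1.1 library 1 and -0.74 without anti-NK1.1 library 3. The part of this response in the interleukin-1 and inflammasome values was not tested.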

How the data were processed

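Reads came from 6 libraries of sorted microglia (isotype 1 to 3, anti-NK1.1 1 to 3). The deposited values are read counts per gene: whole numbers of different totals, with 2 summary rows that entered neither library sizes nor tests (the no-feature row held 53.3% to 57.4% of reads). STAR 2.5.3a, Cufflinks 2.0, DESeq2 1.1 and build mm10 are named per the submitters' processing notes; for counting, program and strandedness are not given in the sources used. A further 26 rows with calendar dates in place of symbols were left out. Genes passing filterByExpr (14520) received TMM factors and entered a quasi-likelihood F-test (edgeR 4.0.16, R 4.3.3, two-sided) whose model held only the group. Benjamini-Hochberg adjustment ran over all of them. Values are TMM-scaled CPM (counts per 1000000); SE is the log2 change divided by the square root of F. Alternatives were DESeq2 1.42.0, limma 3.58.1, other scaling and filters, each library left out, a length and GC correction and a replicate block. Coordinates, length and GC content are from GENCODE M21 (GRCm38), matched by symbol (99.1% of tested genes have a length), and promoter windows from RefSeq. The fit was tested on simulated counts. Kits add no molecular identifiers, so counting precision covers counting error only. A floor of 3 counts was 0.0784 to 0.120 CPM. All 10 members were named; from each pathway list the 3 other tested genes of smallest p. The members and lists were chosen with earlier results of these data known.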

Additional observations from a re-analysis of the deposited data

How the results depend on the processing

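Over all genes edgeR called 0, DESeq2 called 137 and limma with sample weights 4. Leaving out 1 library gave 0 to 129 calls with edgeR and, in an alternative chosen after seeing the data, 62 to 1351 with DESeq2, both highest without anti-NK1.1 2 (98, 184 and 166 without isotype 1, 2 and 3, 239 without anti-NK1.1 3). Among the 10 genes edgeR called 0 in every setting, DESeq2 called 1 (Il1a), and DESeq2 with 1 library left out called 0 to 1. Il1a was lower in all 17 settings (-1.10 to -0.75), as were Il1rn (-0.81 to -0.03), Casp1 (-0.35 to -0.06) and Nlrp3 (-1.11 to -0.59), and Il18 was higher in all 17 (0.04 to 0.54). Gsdmd, at -0.01, was 0.0209 with DESeq2, 0.0233 with RLE size factors and 0.0293 among genes of a mean CPM of at least 5, and -0.21 to 0.15 without 1 library (with DESeq2 0.0197 without isotype 3, 0.0287 without anti-NK1.1 1 and 0.19 at most). Il1r2 was 0.0191 with sample weights and -0.61 to 0.21 without 1 library (with DESeq2 0.0735 and 0.0936 without anti-NK1.1 1 and 2, 0.24 at most). Il1b was -0.31 to 0.0828 without 1 library (with DESeq2 0.0146 without isotype 3, 0.12 at most). Without anti-NK1.1 1 and 3, where the lone library is assumed to vary like the isotype group, Il1rap was 0.37, Pycard -0.22, Il33 0.45, Ninj1 -0.18, Nfkbib -0.10 and the Il1b to Il1rn ratio -0.25. That ratio was -0.0366 to 0.49 and the Il1a to Il1rn ratio -1.05 to -0.28 without 1 library. Ninj1 was -0.25 with the length and GC correction and -0.24 with that correction and the replicate block. The causes were not tested. Same-numbered libraries share only a number (correlation of deviations 0.05, 0.03 and -0.0038 for numbers 1 to 3, and isotype 3 correlated better with another number). With the replicate block edgeR still called 0 genes, Il1a had -1.01, Il1rap -1.25 (-0.79 with the length and GC correction as well), and the Il1a and Il1b to Il1rn ratios had exact sign-flip p = 0.5 and p = 0.75. With 3 libraries a group the exact permutation test cannot go below 0.1, and the sign-flip test over 3 pairs has a higher floor than that.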
